A study of Homo sapiens with 12 samples.

Results

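The 10 genes described here read out and restrain canonical WNT signalling: AXIN2, SP5, LEF1, TCF7, NKD1, NOTUM, APCDD1, RNF43, ZNRF3 and LGR5. They were taken by symbol from the count table of a human pluripotent stem cell study, with rows that share a symbol summed, and make up 10 of its 35940 symbols. Each stands on 1 Ensembl identifier, and all 10 passed the filter on low counts and were among the 17047 symbols tested.

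The cells were of ESI017, an established line of human embryonic stem cells, with a SOX2::mCitrine reporter, a fluorescent protein that marks expression of the pluripotency and neural factor SOX2. Colonies confined to micropatterned glass were kept for 3 days with FGF8 at 200 ng/ml together with WNT3A at 100, 300 or 1000 ng/ml, and then sorted by the reporter into a SOX2-negative and a SOX2-positive gate, or were kept in N2B27 medium alone as control. A biological repeat covered every condition except 300 ng/ml. The libraries therefore form 7 groups: SOX2-negative and SOX2-positive cells at 100 and at 1000 ng/ml with 2 libraries each, both gates at 300 ng/ml with 1 library each, and control with 2 libraries. The labels give no gate for the control libraries. Every WNT3A dose came with the same FGF8 dose, so in the comparisons with control the effects of FGF8 and of WNT3A cannot be told apart, while FGF8 was held constant between doses. All libraries derive from 1 reporter line.

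In canonical WNT signalling, a WNT ligand bound to Frizzled and LRP receptors stops the destruction complex from breaking down beta-catenin, which then enters the nucleus and activates genes together with TCF and LEF factors. Several of those target genes act back on the pathway. AXIN2 rebuilds the destruction complex, NKD1 binds Dishevelled, NOTUM and APCDD1 act outside the cell or at its surface, and RNF43 and ZNRF3 remove Frizzled from the membrane unless R-spondin holds them through an LGR receptor. WNT signalling drives gastrulation and the posterior body axis in vertebrate embryos, and in human stem cell colonies it is widely used to induce primitive streak derivatives.

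Library totals were 16474856 to 28079048 estimated counts. Levels are given as CPM (a gene's share of the estimated counts of a library after TMM scaling, on the usual counts-per-1000000 scale), and "called" means an adjusted p below 0.05 in edgeR's quasi-likelihood test with Benjamini-Hochberg adjustment over all symbols tested. SOX2 itself followed the gates, at 1.85 to 5.98 CPM in the SOX2-negative libraries, 418 to 467 CPM in the SOX2-positive ones and 652 and 676 CPM in control. Summed over 5 definitive endoderm markers (SOX17, FOXA2, GATA6, GATA4 and CXCR4), the level was 784 to 1362 CPM in SOX2-negative libraries, 8.001 to 20.9 CPM in SOX2-positive libraries and 3.81 and 7.54 CPM in control, where SOX17 was at 0. Of these markers 5 of 5 were called higher in SOX2-negative than in SOX2-positive cells, as were 4 of 4 lateral and cardiac mesoderm markers (158 to 432 CPM summed, against 2.33 to 16.7 CPM). Over all symbols 12.9% were called higher and 11.1% lower. Primitive streak markers had 2 of 4 called higher, presomitic mesoderm markers 1 of 3, and amnion and surface ectoderm markers 1 higher and 2 lower of 3. Called lower were 4 of 5 pluripotent and 3 of 4 neural markers. Control differed as well. Summed neural markers were at 24.4 to 177 CPM in treated libraries, against 750 and 884 CPM in control. Summed pluripotent markers were at 2261 to 3243 CPM in SOX2-positive libraries, against 1035 and 894 CPM in control. Amnion and surface ectoderm markers summed lower in every SOX2-positive library than in control. Marker levels thus differed between the gates and between treated cells and control. Their part in the results between gates and over control was not tested. In sorted bulk RNA, fewer cells that express a gene and less of its RNA per cell cannot be told apart. The second SOX2-negative library at 100 ng/ml stood apart from the other SOX2-negative libraries on the second principal component (44.3, against -17.4 to 0.304), so results that use it were also computed without it.

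In treated colonies, 7 of the 10 genes were called higher in SOX2-negative than in SOX2-positive cells and none lower, where 24% of all symbols were called, 12.9% higher and 11.1% lower. The median log2 fold change of the 10 genes was 1.64, against 0.0068 over all symbols tested. LGR5, NOTUM, SP5 and NKD1 showed the widest gaps, LEF1, TCF7 and APCDD1 smaller ones, and AXIN2, RNF43 and ZNRF3 were not called. Over 17 alternative fits, among them the fit without the second SOX2-negative library at 100 ng/ml, the log2 fold changes moved as follows. They spanned 6.60 to 7.14 for LGR5, 4.20 to 4.75 for NOTUM, 3.48 to 4.27 for SP5 and 2.74 to 3.15 for NKD1. The smaller ones spanned 1.67 to 2.59 for LEF1, 1.02 to 1.48 for TCF7 and 0.60 to 1.03 for APCDD1. In what follows, values at 100 and 1000 ng/ml are given as repeat 1 then repeat 2, and fold changes between gates average these doses. Errors after log2 fold changes are standard errors recovered from the quasi-likelihood F statistic.

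**Figure D1:**
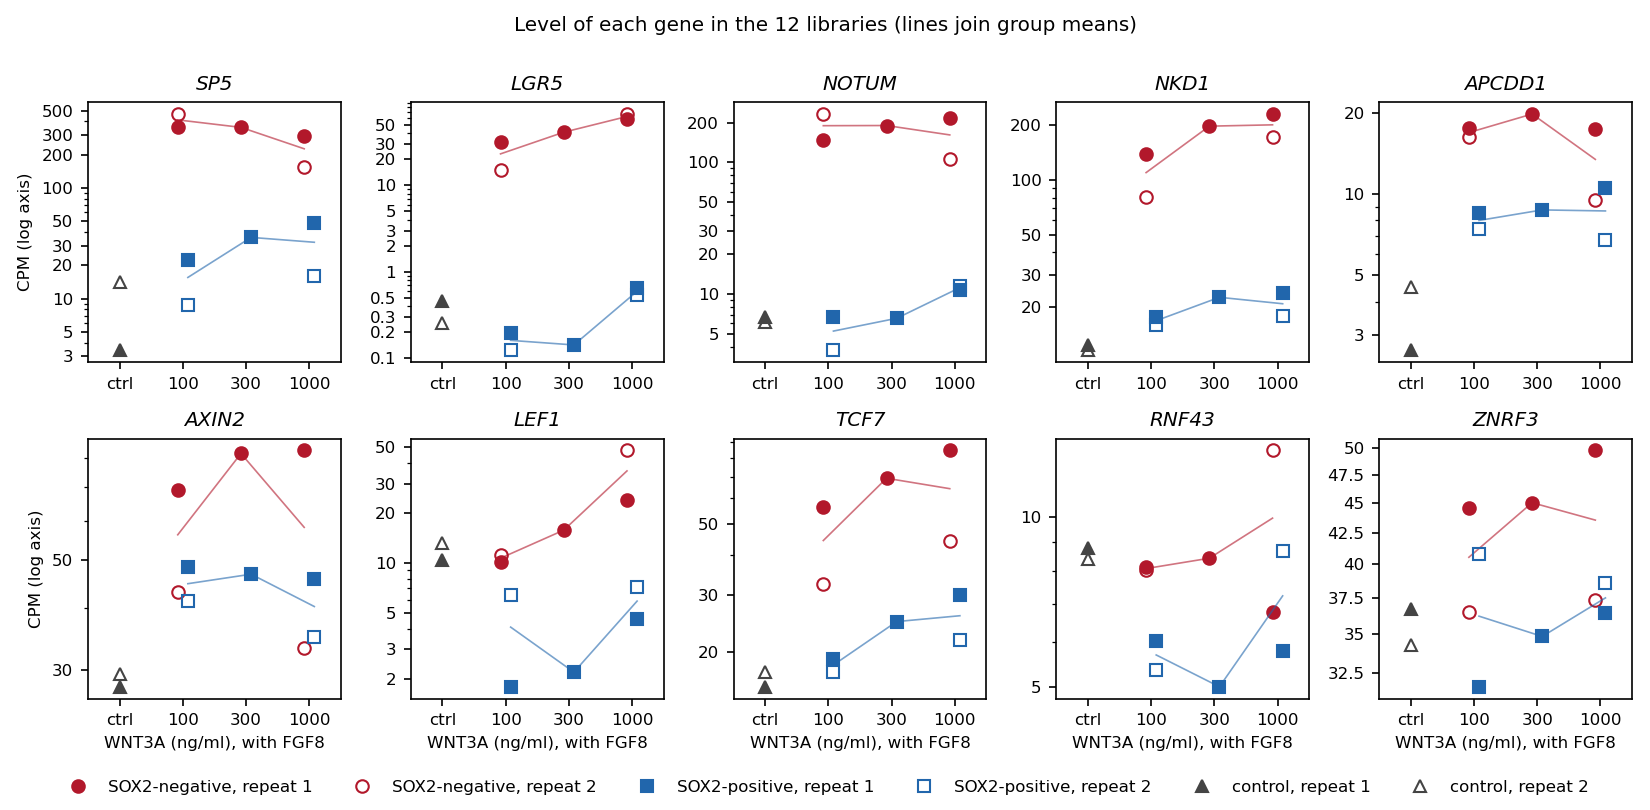
Level of each gene (CPM, log axis) in the 12 libraries by WNT3A dose in ng/ml, with control at the left; red circles are SOX2-negative, blue squares SOX2-positive and grey triangles control libraries, filled for repeat 1 and open for repeat 2, and lines join group means. SP5, LGR5, NOTUM, NKD1, LEF1 and TCF7 have every SOX2-negative library above every SOX2-positive one, while the gates overlap for APCDD1, AXIN2, RNF43 and ZNRF3.

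Of the transcription factors, SP5 encodes a zinc finger repressor of the Sp family that is a direct target of beta-catenin and TCF in vertebrates. The gene lies on chromosome 2 (170715351 to 170718078, plus strand, GRCh38, GENCODE 29). Its promoter is shown because, of those matched, only it held CTTTGAT or CTTTGAA, letters read by TCF and LEF factors. The shorter CTTTG was found at LEF1, TCF7 and RNF43 too, and in 47.5% of all promoter windows. Further forms of the letters these factors read were not searched for. The search used CTTTGAT and CTTTGAA on both strands of the RefSeq promoter windows (GRCh38.p14), which run from 250 bases before to 50 bases after an annotated start. A window was matched for 5 of the 10 genes, with 7 windows in all: SP5, LEF1, TCF7, RNF43 and APCDD1. The stretch of SP5 from 160 to 61 bases before the start, chr2:170715177-170715276 on the plus strand, reads as follows, with the matches in capitals.
SP5: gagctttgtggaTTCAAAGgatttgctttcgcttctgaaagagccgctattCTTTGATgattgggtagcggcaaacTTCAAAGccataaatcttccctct
The first and last matches are CTTTGAA read on the minus strand, beginning 148 and 84 bases before the start, and the middle one is CTTTGAT on the plus strand, 109 bases before it. The motifs do not overlap each other. Among all 35116 promoter windows, 6.86% held either motif and 9 windows (0.0256%) held at least 3 matches. A match describes these letters and is not a measured binding site.

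SP5 had 359 and 466 CPM at 100 ng/ml, 353 CPM at 300 and 295 and 156 CPM at 1000 in SOX2-negative cells, against 22.3 and 8.70, 35.7, and 48.6 and 15.9 CPM at those doses in SOX2-positive cells and 3.40 and 14.0 CPM in control. All 5 SOX2-negative libraries lay above all 5 SOX2-positive ones, and the SOX2-positive libraries overlapped control. The log2 fold change between gates was 3.77 ± 0.52 (adjusted p = 0.00039). Within the colonies sorted together the ratio of the gates was 16.1 and 53.5 at 100 ng/ml, 9.88 at 300 and 6.08 and 9.80 at 1000.

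LEF1, an activator that carries beta-catenin to its targets, is on chromosome 4 (108047545 to 108168956, minus strand). It had 10.2 and 11.2, 15.7, and 24.1 and 47.6 CPM in SOX2-negative cells at the rising doses, against 1.78 and 6.40, 2.19, and 4.60 and 7.15 CPM in SOX2-positive cells and 10.4 and 13.2 CPM in control. SOX2-negative cells at 100 ng/ml overlapped control, those at 300 and 1000 ng/ml lay above it, and all 5 SOX2-positive libraries below it. Between gates the log2 fold change was 1.99 ± 0.37 (adjusted p = 0.0028), and 2.59 without the second SOX2-positive library at 100 ng/ml.

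TCF7, which encodes TCF1, the other activating factor of the family, is on chromosome 5 (134114711 to 134151865, plus strand). Its levels were 56.3 and 32.4, 69.3, and 84.6 and 44.1 CPM in SOX2-negative cells, against 19.0 and 17.3, 24.8, and 29.9 and 21.8 CPM in SOX2-positive cells and 15.5 and 17.2 CPM in control. The lowest SOX2-negative library exceeded the highest SOX2-positive one, and the log2 fold change was 1.30 ± 0.25 (adjusted p = 0.0031). Exons of TCF7 overlap SKP1 on the opposite strand, and TCF7 drew 8749 estimated counts, against 57700 for SKP1; the sources used here do not state strand-specific counting.

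Among the inhibitors inside the cell, NKD1, a Dishevelled-binding protein, is encoded on chromosome 16 (50548330 to 50649249, plus strand). It had 139 and 80.2, 197, and 229.6 and 171 CPM in SOX2-negative cells, against 17.8 and 16.04, 22.7, and 23.9 and 18.0 CPM in SOX2-positive cells and 12.5 and 11.6 CPM in control. The lowest SOX2-positive library was above both control libraries, and the lowest SOX2-negative library was well above the highest SOX2-positive one. The log2 fold change between gates was 2.98 ± 0.21 (adjusted p = 5.4e-06), with ratios within colonies of 5.00 to 9.59.

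AXIN2, the destruction complex scaffold often used as a reporter of canonical WNT signalling, is on chromosome 17 (65528563 to 65561647, minus strand) and did not separate the gates. It had 69.2 and 43.2, 81.9, and 83.0 and 33.3 CPM in SOX2-negative cells, against 48.3 and 41.3, 46.8, and 45.7 and 34.9 CPM in SOX2-positive cells and 27.8 and 29.5 CPM in control. All 10 treated libraries lay above both control libraries, while the lowest treated library of all was a SOX2-negative one, the second at 1000 ng/ml. The log2 fold change between gates was 0.43 ± 0.27, with a 95% interval of -0.16 to 1.02 (adjusted p = 0.28). Without that library it was 0.67 (adjusted p = 0.046), and without the first SOX2-negative library at that dose 0.013 (adjusted p = 0.99). It was not called under the other alternatives. Over 4 primitive streak markers (TBXT, MIXL1, EOMES and GSC) the summed level in SOX2-negative libraries was 363 and 164, 420, and 516 and 132 CPM, high and low in the same libraries as AXIN2, against 8.29 to 96.3 CPM in SOX2-positive libraries and 1.21 and 1.22 CPM in control. Their part in the AXIN2 values was not tested.

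Of the secreted and surface inhibitors, NOTUM, a carboxylesterase that removes the lipid a WNT ligand needs for receptor binding, is on chromosome 17 (81952507 to 81961840, minus strand). It had 147 and 233, 190.3, and 217 and 106 CPM in SOX2-negative cells, against 6.74 and 3.75, 6.56, and 10.8 and 11.6 CPM in SOX2-positive cells and 6.76 and 6.11 CPM in control. The SOX2-positive libraries at 100 and 300 ng/ml did not exceed the higher control library, and those at 1000 ng/ml did. Between gates the log2 fold change was 4.51 ± 0.30 (adjusted p = 3.4e-06), and the ratio within colonies spanned 9.08 to 62.0.

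APCDD1, a membrane glycoprotein that binds WNT and LRP proteins, is on chromosome 18 (10454628 to 10489948, plus strand). It had 17.6 and 16.2, 19.8, and 17.4 and 9.52 CPM in SOX2-negative cells, against 8.53 and 7.46, 8.75, and 10.6 and 6.79 CPM in SOX2-positive cells and 2.64 and 4.54 CPM in control. All treated libraries of both gates lay above both control libraries, and the gates overlapped by 1 library. The log2 fold change between gates was 0.86 ± 0.26 (adjusted p = 0.035). That call was lost without the first SOX2-negative library at 1000 ng/ml (0.15), the first or second SOX2-positive library at 100 ng/ml (0.079 and 0.12) or the second SOX2-positive library at 1000 ng/ml (0.13), with library totals in place of TMM (adjusted p = 0.056) and with identifiers kept apart (0.051).

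The E3 ubiquitin ligases that clear Frizzled receptors did not separate the gates. RNF43, on chromosome 17 (58352500 to 58417595, minus strand), had 8.15 and 8.03, 8.44, and 6.79 and 13.1 CPM in SOX2-negative cells, against 6.02 and 5.36, 5.00, and 5.79 and 8.69 CPM in SOX2-positive cells and 8.79 and 8.40 CPM in control. ZNRF3, on chromosome 22 (28883592 to 29057487, plus strand), had 44.6 and 36.5, 45.0, and 49.8 and 37.3 CPM in SOX2-negative cells, against 31.6 and 40.8, 34.8, and 36.4 and 38.6 CPM in SOX2-positive cells and 36.7 and 34.3 CPM in control. For both genes the gates overlapped each other and control. The log2 fold change between gates was 0.49 ± 0.25 for RNF43 (95% interval -0.07 to 1.04, adjusted p = 0.19) and 0.19 ± 0.16 for ZNRF3 (95% interval -0.17 to 0.55, adjusted p = 0.44). Within colonies RNF43 was higher in the SOX2-negative cells of all 5 sets, by 1.17 to 1.69 times, and ZNRF3 in 3 of 5. RNF43 shares exonic sequence on its own strand with SUPT4H1 and drew 1977 estimated counts, against 13113 for SUPT4H1, so the counting could move reads between them.

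LGR5, an R-spondin receptor that protects Frizzled from these ligases, is on chromosome 12 (71439770 to 71586310, plus strand) and showed the widest gap. It had 31.4 and 14.95, 41.2, and 58.4 and 66.95 CPM in SOX2-negative cells, against 0.198 and 0.124, 0.143, and 0.648 and 0.543 CPM in SOX2-positive cells and 0.457 and 0.256 CPM in control. The SOX2-positive and control values rest on 3 to 12 estimated counts a library, so their order carries little weight, whereas SOX2-negative libraries held 350 to 1625. The log2 fold change between gates was 6.93 ± 0.34 (adjusted p = 6.5e-07), and 55 is its rank by absolute fold change among all symbols tested. The ratio within colonies was 158 and 121 at 100 ng/ml, 289 at 300 and 90.1 and 123 at 1000.

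**Figure D2:**
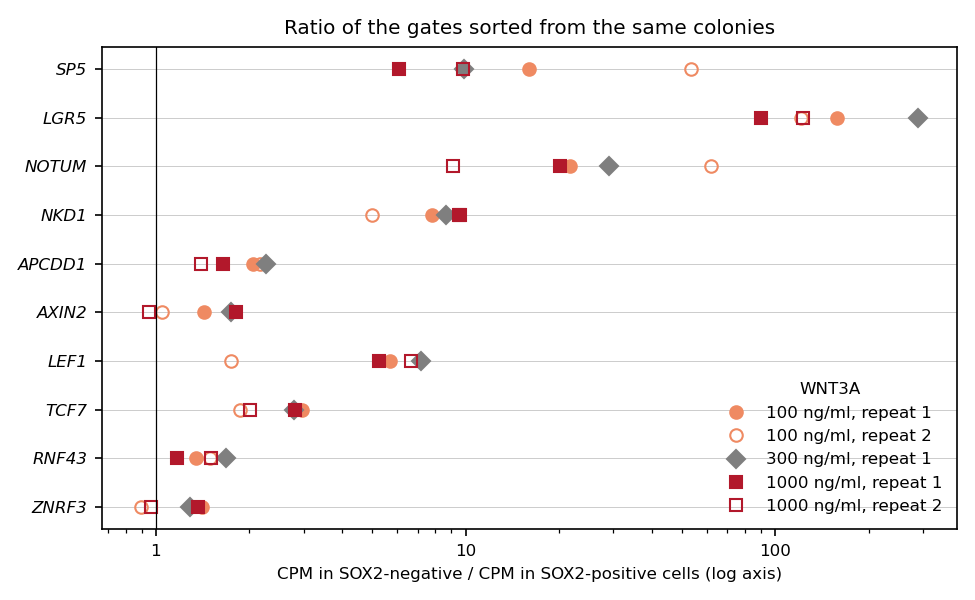
Ratio of CPM in SOX2-negative cells to CPM in SOX2-positive cells of the same colonies (log axis) for each gene; circles, diamonds and squares are 100, 300 and 1000 ng/ml WNT3A, filled for repeat 1 and open for repeat 2, and the line marks a ratio of 1. LGR5 ratios run from 90.1 to 289, those of TCF7 from 1.87 to 2.96, and AXIN2 and ZNRF3 have points on both sides of 1.

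Per kilobase of the exons annotated to each gene, mean levels in SOX2-negative cells at 100 ng/ml ran from 200.0 CPM per kb for SP5 and 62.8 for NOTUM through 10.8 for AXIN2, 6.29 for NKD1, 5.82 for ZNRF3 and 4.41 for both TCF7 and LGR5 to 2.85 for APCDD1, 1.99 for LEF1 and 1.08 for RNF43. In SOX2-positive cells at that dose AXIN2 stood highest at 8.57 CPM per kb, before SP5 at 7.53, a gap smaller than the spread between the repeats of SP5, and ZNRF3 at 5.20, and the other members lay at or below 1.81. In control ZNRF3, at 5.09, lay close to AXIN2, at 5.49, and SP5, at 4.22. AXIN2, SP5 and ZNRF3 thus led in SOX2-positive cells and in control, and SP5 and NOTUM in SOX2-negative cells at 100 ng/ml. The exon length counts every annotated isoform, which lowers the value of genes with long rarely used exons.

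Against control, most of these genes were higher in SOX2-negative cells. At 100 ng/ml 6 of 10 were called higher and none lower, where 20.6% of all symbols were called, 11.9% higher and 8.66% lower. At 1000 ng/ml it was again 6 of 10 higher, where 17.8% of symbols were called, 10.7% higher and 7.1% lower. At each dose the called genes were LGR5, NOTUM, SP5, NKD1, APCDD1 and TCF7. Without the second SOX2-negative library at 100 ng/ml the count at that dose was also 6. The gate comparison and these comparisons share libraries and are not independent of each other.

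LGR5 had log2 fold changes over control of 6.04 ± 0.46 at 100 ng/ml and 7.48 ± 0.48 at 1000 ng/ml (adjusted p = 2.3e-05 and 1.1e-05), the first being 5.396 without the first SOX2-negative library at 100 ng/ml. SP5 had 5.55 ± 0.80 and 4.68 ± 0.76 (adjusted p = 0.00083 and 0.0017). The control libraries differed widely for SP5, and its log2 fold change at 100 ng/ml was 4.88 without the first and 6.92 without the second control library, and at 1000 ng/ml 4.01 and 6.05. NOTUM had 4.88 ± 0.43 and 4.65 ± 0.43 (adjusted p = 4.5e-05 and 5.1e-05), with 4.03 at 1000 ng/ml without its first SOX2-negative library. NKD1 had 3.18 ± 0.31 and 4.05 ± 0.32 (adjusted p = 7.1e-05 and 2.1e-05). These genes were called under every alternative tried.

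The other called genes changed less. APCDD1 had log2 fold changes over control of 2.22 ± 0.39 and 1.89 ± 0.38 (adjusted p = 0.0027 and 0.0061), the call at 1000 ng/ml being lost without the first SOX2-negative library at that dose (0.051) or without the first control library (0.069). TCF7 had 1.43 ± 0.35 and 1.97 ± 0.35 (adjusted p = 0.016 and 0.0031), and its call at 100 ng/ml was lost without the first (0.12) or the second control library (0.090). AXIN2, at 0.97 ± 0.38 and 1.02 ± 0.38, was not called (adjusted p = 0.099 and 0.095), although DESeq2 on the same libraries gave adjusted p = 0.047 and 0.042. Of 17 alternatives, 4 called AXIN2 at 100 ng/ml and 3 at 1000 ng/ml, with lowest adjusted p of 0.0039 and 0.0024. Its value at 100 ng/ml was called without the first or the second SOX2-negative library at 1000 ng/ml (0.035 each), and its value at 1000 ng/ml without the second of these (1.52, adjusted p = 0.013). Without the first of them the value at 1000 ng/ml was 0.21 (adjusted p = 0.73), and without the first SOX2-negative library at 100 ng/ml the value at that dose was 0.57 (adjusted p = 0.29). RNF43 and ZNRF3 lay between -0.09 and 0.29 at both doses, with adjusted p of 0.43 to 0.89.

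LEF1 lay above both control libraries in SOX2-negative cells at 1000 ng/ml and below both in SOX2-positive cells. In SOX2-negative cells its log2 fold change was -0.15 ± 0.50 at 100 ng/ml (adjusted p = 0.86) and 1.60 ± 0.50 at 1000 ng/ml (adjusted p = 0.051, just over the threshold). With the repeat as a block in the model the value at 1000 ng/ml was called (adjusted p = 0.017), as it was by DESeq2 (0.014). Leaving out either SOX2-negative library at 100 ng/ml (0.037 each), the first at 1000 ng/ml (0.046) or either SOX2-positive library at 100 ng/ml (0.016 and 0.017) also gave a call, whereas without the second SOX2-negative library at 1000 ng/ml the value was 1.01 (adjusted p = 0.33). In SOX2-positive cells LEF1 was at -1.52 ± 0.52 and -1.002 ± 0.51 (adjusted p = 0.15 and 0.34), and with the block the value at 100 ng/ml was called (adjusted p = 0.038), as it was without the second SOX2-positive library at that dose (-2.72, adjusted p = 0.043). Without the first SOX2-positive library at that dose it was -0.89 (adjusted p = 0.52).

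None of the 10 genes was called between SOX2-positive cells and control by edgeR. At 100 ng/ml 4.22% of all symbols were called, 2.69% higher and 1.53% lower. There 2 of the 10 genes had an unadjusted p below 0.05, LEF1 and APCDD1, against 16.9% of all symbols. DESeq2 called 0 of the 10 genes, against 1375 of the 17047 symbols. At 1000 ng/ml 5.6% of symbols were called, 3.63% higher and 1.97% lower. There 3 genes had an unadjusted p below 0.05, SP5, NKD1 and APCDD1, against 18.1% of all symbols. DESeq2 called 1 of the 10 genes, APCDD1 (adjusted p = 0.035), against 1614 of the 17047 symbols. The medians of the 10 log2 fold changes were 0.089 and 0.71, against 0.0067 and 0.0074 over all symbols. Values over control in SOX2-positive cells at 1000 ng/ml were 1.87 ± 0.69 for SP5 (95% interval 0.35 to 3.40), 1.26 ± 0.38 for APCDD1 (0.42 to 2.10) and 0.79 ± 0.29 for NKD1 (0.16 to 1.43), with adjusted p of 0.17, 0.091 and 0.16. The SP5 value was 0.86 without the first SOX2-positive library at that dose, and 1.20 without the first and 3.24 without the second control library, none of them called. SP5 was called at 1000 ng/ml under 1 alternative, edgeR without the filter on low counts (adjusted p = 8.0e-10). At 100 ng/ml it was likewise called under 1 alternative (adjusted p = 0.039). NKD1 was called at 1000 ng/ml under 4 of 17 alternatives, among them without the first and without the second SOX2-negative library at 100 ng/ml. Its log2 fold change at 1000 ng/ml spanned 0.57 to 0.99 over the alternatives. At 100 ng/ml NKD1 was called under none. AXIN2 was at 0.64 ± 0.38 and 0.49 ± 0.38 (adjusted p = 0.44 and 0.57), although all 5 SOX2-positive libraries were above both controls. It was called at 100 ng/ml under 1 of 17 alternatives (adjusted p = 0.016) and at 1000 ng/ml under none. These intervals reach changes of a few times, so the absence of calls does not show that SOX2-positive cells equal control.

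**Figure D3:**
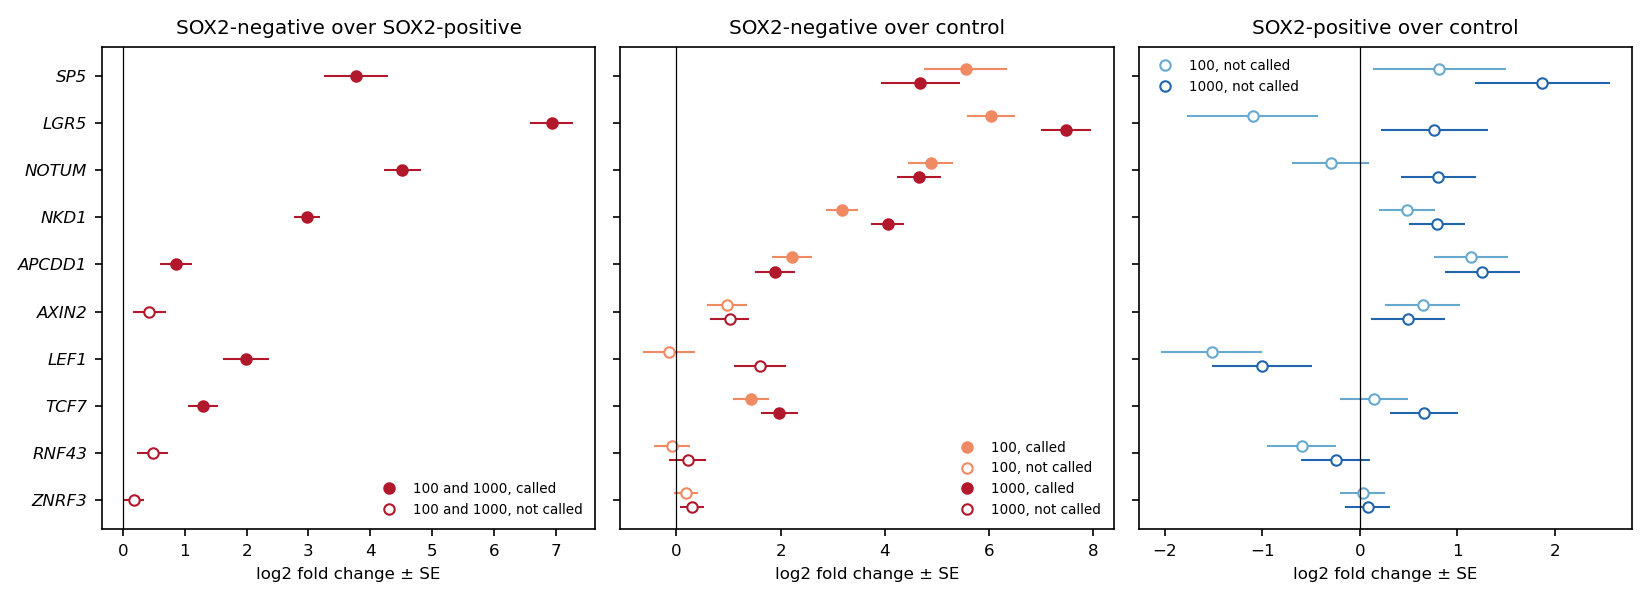
Log2 fold change with its standard error for each gene, SOX2-negative over SOX2-positive (left), SOX2-negative over control (middle) and SOX2-positive over control (right), from the model over all 12 libraries; paler points are 100 and darker points 1000 ng/ml, and filled points are called at an adjusted p below 0.05. LGR5 reaches 6.93 between gates and 7.48 over control in SOX2-negative cells, and no point in the right panel is filled.

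Raising WNT3A from 100 to 1000 ng/ml gave no call among the 10 genes in either gate by edgeR, where 0% of all symbols were called. In SOX2-negative cells 3 genes had an unadjusted p below 0.05, as did 18.2% of all symbols. They were LEF1 (log2 fold change 1.75 ± 0.51, adjusted p = 0.25), LGR5 (1.44 ± 0.34, adjusted p = 0.21) and NKD1 (0.87 ± 0.28, adjusted p = 0.25). DESeq2 called LEF1 (0.042) and LGR5 (0.021), among 411 of the 17047 symbols. Without the first SOX2-negative library at 100 ng/ml, which leaves 1 library in that group, edgeR called NKD1 and LGR5. Many other symbols were called in that fit too, so these calls are not particular to the members. In SOX2-positive cells 2 had an unadjusted p below 0.05, LGR5 (1.86 ± 0.63) and NOTUM (1.10 ± 0.39), against 1.72% of all symbols. Both had an adjusted p of 1, and DESeq2 called 0 of the 10 genes, against 5 of the 17047 symbols.

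Within each repeat the ratio of the level at 1000 to that at 100 ng/ml in SOX2-negative cells was 1.86 and 4.48 for LGR5, 2.37 and 4.27 for LEF1, 1.65 and 2.13 for NKD1 and 1.503 and 1.36 for TCF7. SP5 went the other way, at 0.824 and 0.335, while in SOX2-positive cells its ratio was 2.18 and 1.83. NOTUM had ratios of 1.48 and 0.454 in SOX2-negative cells, so its repeats disagreed, and 1.60 and 3.10 in SOX2-positive cells. The libraries at 300 ng/ml lay between the means at 100 and 1000 ng/ml for SP5, LEF1, NKD1 and LGR5 in SOX2-negative cells.

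The difference of this dose effect between the gates was called for none of the 10 genes by edgeR or DESeq2. Over all symbols edgeR called 0%, and DESeq2 called 16 of 17047. Of the 10 genes 1 had an unadjusted p below 0.05, NOTUM, against 7.91% of all symbols. For NOTUM the difference, SOX2-negative minus SOX2-positive on the log2 scale, was -1.33 ± 0.53 (adjusted p = 0.53), and for SP5 it was -1.92 ± 0.94 (adjusted p = 0.53). Without the first SOX2-negative library at 100 ng/ml, which leaves 1 library in that group, the difference was -1.62 for NOTUM and 1.03 for NKD1. Both were called in that fit, as were many other symbols. For SP5 the difference was called under 1 alternative, the fit without the filter on low counts (adjusted p = 0.00016). Whether the opposite dose directions of SP5 in the gates were called different therefore depended on the processing.

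**Figure D4:**
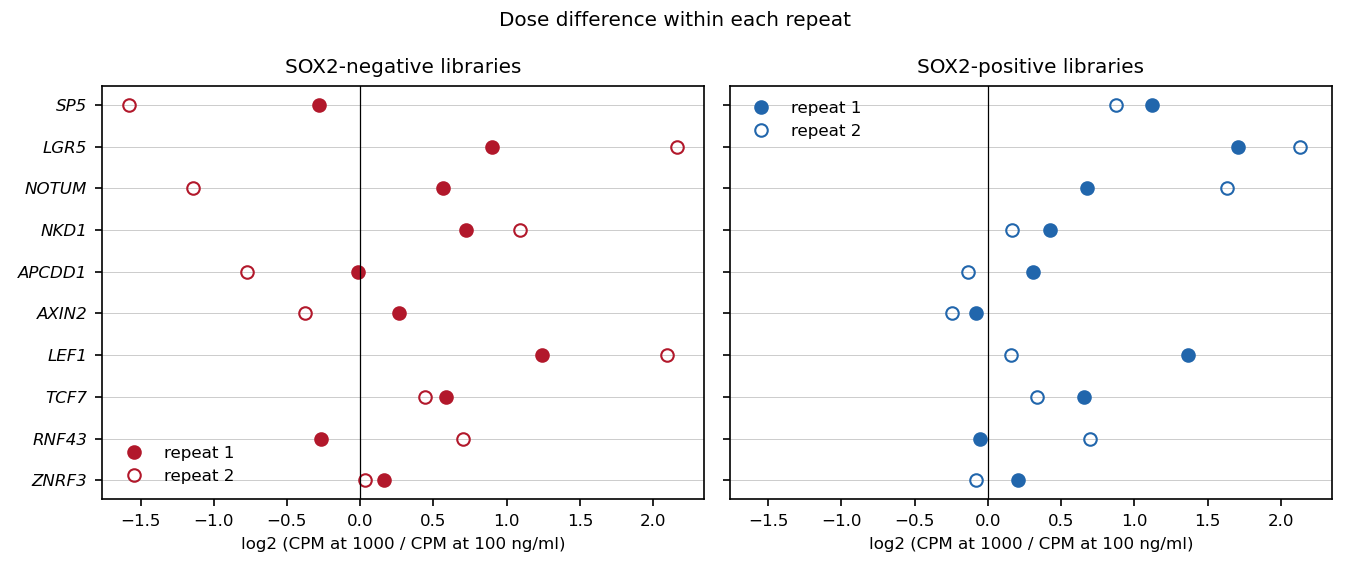
Log2 ratio of CPM at 1000 over CPM at 100 ng/ml WNT3A within each repeat, for SOX2-negative (left) and SOX2-positive libraries (right); filled points are repeat 1, open points repeat 2, and the line marks no difference. LGR5, LEF1, NKD1 and TCF7 lie right of the line in both repeats and both gates, and SP5 lies left of it in SOX2-negative and right of it in SOX2-positive libraries.

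The genes also differed in how the repeats of SOX2-negative cells behaved. In the second repeat AXIN2, TCF7, NKD1, APCDD1 and ZNRF3 were lower than in the first at both doses. SP5 and NOTUM were higher in the second repeat at 100 ng/ml and lower at 1000 ng/ml, and RNF43 and LGR5 the reverse, whereas LEF1 was higher in the second repeat at both. WNT3, a ligand of the streak, had 69.0 and 48.7 CPM at 100 ng/ml and 99.5 and 42.2 CPM at 1000 ng/ml in these libraries. In the same libraries TBXT had 24.95 and 10.8, and 59.3 and 9.11 CPM.

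For each member, the most similar genes were taken by Pearson's r of log2(CPM + 1) over the 12 libraries, among 10617 candidates. The libraries fall into separate sets by gate and treatment, so r mostly follows the set means and is given as a description. NKD1 was closest to P3H2 and GRB10, with r of 1.00 and 0.99, LGR5 to COL5A1 and GPR55 (0.99 each), NOTUM to COL4A2 and COL9A2 (0.99 each) and SP5 to FSCN1 and EPHA2 (0.99 each). TCF7 was closest to TNS4 and CER1 (0.98 each), APCDD1 to MYORG and RAB43 (0.97 each) and AXIN2 to NFASC (0.96) and ZFP36 (0.95). LEF1 was closest to PCDH17 (0.96) and HAND1 (0.94), RNF43 to DNAJB9 (0.91) and PRKD1 (0.89), and ZNRF3 to ZSWIM8 (0.89) and PIGG (0.87).

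Other genes of the pathway moved in both directions between the gates. For each list below, the share over all symbols was 12.9% called higher and 11.1% called lower in SOX2-negative cells. Of 18 WNT ligand and ligand release genes tested, 8 were called higher in SOX2-negative cells and 1 lower. WNT5A, a ligand of mainly non-canonical signalling, had 25.8 and 7.01, 33.9, and 67.4 and 80.2 CPM in SOX2-negative cells, against 2.10 to 3.26 CPM in SOX2-positive cells, and a log2 fold change of 3.65 ± 0.37 (adjusted p = 5.6e-05), which was 3.03 without the first SOX2-negative library at 100 ng/ml. WNT6 was called higher (adjusted p = 0.014), at 0 to 1.94 CPM in SOX2-negative cells and 0 in every SOX2-positive library. WNT6 was not called without the second SOX2-negative library at 1000 ng/ml (adjusted p = 0.053). WNT8B was called lower (adjusted p = 0.0033), at 0 to 0.0535 CPM in SOX2-negative and 0.397 to 1.20 CPM in SOX2-positive cells.

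Of 21 receptor and R-spondin genes, 7 were called higher and 3 lower in SOX2-negative cells. RSPO3, an R-spondin that binds LGR receptors, had 11.3 and 4.40, 12.1, and 17.0 and 8.88 CPM in SOX2-negative cells, against 0 to 1.04 CPM in SOX2-positive cells and 0.305 and 0.732 CPM in control, and was called (adjusted p = 0.00027). The receptor kinase ROR2, which binds WNT5A, had a log2 fold change of 2.71 ± 0.26 (adjusted p = 3.4e-05). RSPO2 was lower, at 0 to 0.120 CPM in SOX2-negative and 0.0951 to 2.58 CPM in SOX2-positive cells (adjusted p = 0.017), a call that was lost without the second library of either gate at 1000 ng/ml (0.055 and 0.12). FZD3 was lower by -0.88 ± 0.27 (adjusted p = 0.036), a call lost under 8 of 17 alternatives, with adjusted p up to 0.14.

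Among 10 secreted antagonists and their co-receptors, 6 were called higher and 2 lower in SOX2-negative cells. DKK1, which blocks LRP receptors and is itself a WNT target, had 65.4 and 45.9, 42.4, and 30.8 and 9.70 CPM in SOX2-negative cells, against 0.783 to 3.30 CPM in SOX2-positive cells and 6.30 and 12.4 CPM in control. Its log2 fold change between gates was 4.48 ± 0.48 (adjusted p = 7.3e-05). FRZB, a soluble Frizzled-like binder of WNT, was higher by 2.19 ± 0.26 (adjusted p = 0.00014). SFRP2, a member of the same family, was lower by -2.69 ± 0.24 (adjusted p = 2.3e-05), at 36.6 to 71.7 CPM in SOX2-negative cells, 328 to 471 CPM in SOX2-positive cells and 157 and 237 CPM in control. WIF1 was lower (adjusted p = 0.044), with no library above 1.81 CPM, and was not called under 9 of 17 alternatives, with adjusted p up to 0.14.

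Of 22 intracellular components, 3 were called higher and 4 lower. TCF7L1, the mainly repressive TCF member, had 95.3 and 91.05, 92.0, and 92.6 and 54.8 CPM in SOX2-negative cells, against 152 to 229 CPM in SOX2-positive cells and 202 and 169 CPM in control (log2 fold change -1.19 ± 0.20, adjusted p = 0.0014). TCF7L1 thus ran opposite to LEF1 and TCF7 between the gates. The co-repressor genes TLE2 and TLE3 were higher by 0.88 ± 0.20 and 0.65 ± 0.13 (adjusted p = 0.0094 and 0.0042), and APC2, a destruction complex gene, was lower by -1.07 ± 0.24 (adjusted p = 0.0081). APC2 had 3.17 to 4.32 CPM in SOX2-negative cells and 5.09 to 12.2 CPM in SOX2-positive cells, against 58.7 and 52.2 CPM in control.

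Of 10 WNT-responsive genes of the caudal embryo, 4 were called higher and 1 lower. The homeobox gene CDX2 had 4.25 and 5.08, 10.9, and 18.0 and 17.0 CPM in SOX2-negative cells, against 0.0905 to 1.06 CPM in SOX2-positive cells and 0 and 0.0366 CPM in control, and was called between gates (adjusted p = 0.00014). CCND1, the cyclin D1 gene, was lower by -0.94 ± 0.13 (adjusted p = 0.00035), at 116 to 134 CPM in SOX2-negative cells, 223 to 256 CPM in SOX2-positive cells and 276 and 299 CPM in control.

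Against control, the ligand genes in SOX2-negative cells counted 8 higher and 2 lower at 100 ng/ml and 9 higher and 1 lower at 1000 ng/ml. The receptor and R-spondin genes counted 5 and 7, and 4 and 7. Over all symbols 11.9% were called higher and 8.66% lower at 100 ng/ml, and 10.7% and 7.1% at 1000 ng/ml. WNT8A had 10.1 and 4.83, 14.7, and 25.4 and 11.9 CPM in SOX2-negative cells and 1.32 to 2.83 CPM in SOX2-positive cells, against 0.0508 and 0.293 CPM in control. The endogenous WNT3A gene had 0.618 to 6.07 CPM in SOX2-negative cells and 0.907 to 3.09 CPM in SOX2-positive cells, against 0.102 and 0 CPM in control. FZD4 was higher in SOX2-negative cells by 2.89 ± 0.25 at 100 ng/ml and 3.25 ± 0.25 at 1000 ng/ml (adjusted p = 4.0e-05 and 2.0e-05). The secreted antagonists counted 3 higher and 2 lower at 100 ng/ml and 1 higher and 3 lower at 1000 ng/ml, the intracellular genes 2 and 4, and 1 and 5, and the caudal genes 4 and 1, and 6 and 1.

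In SOX2-positive cells against control, 1 ligand gene was called higher at 100 ng/ml and 2 at 1000 ng/ml, with none lower. Over all symbols 2.69% were called higher and 1.53% lower at 100 ng/ml, and 3.63% and 1.97% at 1000 ng/ml. Of the receptor and R-spondin genes 3 and 5 were called lower at the rising doses and none higher, and of the antagonists 2 and 3 lower and none higher. The intracellular genes counted 1 higher and 3 lower at 100 ng/ml, and 0 and 3 at 1000 ng/ml. Of 10 caudal genes none was called at 100 ng/ml and 1, CDX1, was called higher at 1000 ng/ml, a call kept under 10 of 17 alternatives. At 1000 ng/ml 6 caudal genes had an unadjusted p below 0.05, against 18.1% of all symbols. DESeq2 called 4 of them there, against 1614 of the 17047 symbols. FZD5 was lower by -2.67 ± 0.35 at 1000 ng/ml (adjusted p = 0.0026), at 83.8 and 118 CPM, against 626 and 659 CPM in control. FRZB was lower by -3.20 ± 0.38 and -2.93 ± 0.37 (adjusted p = 0.0018 and 0.0024), and the second value was -3.63 without the second SOX2-positive library at 1000 ng/ml. APC2 was lower by -2.55 ± 0.34 and -3.12 ± 0.35 (adjusted p = 0.0032 and 0.0010). Between 1000 and 100 ng/ml edgeR called none of the 81 genes of these lists in either gate. In SOX2-negative cells 20 of them had an unadjusted p below 0.05, against 18.2% of all symbols. DESeq2 called 6 there (WNT5A, FZD5, FZD9, KREMEN2, PYGO1 and TLE2), among 411 of the 17047 symbols. In SOX2-positive cells 6 had an unadjusted p below 0.05, against 1.72% of all symbols, and DESeq2 called 0, against 5 symbols. For the difference of the dose effect between gates, edgeR called 0 of the 81. An unadjusted p below 0.05 was found for 9, against 7.91% of all symbols, and DESeq2 called 0, against 16 symbols.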

How the data were processed

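RNA was measured in 12 libraries of the reporter line. Per the labels' protocols, poly-A RNA was made into paired-end libraries with random hexamer priming. The submitters' processing notes name Salmon and GRCh38, and its version, the annotation and the strand setting are not given in the sources used here. The authors deposited estimated counts per gene, not scaled between libraries, with 37951 Ensembl identifiers; 1034 symbols stand on several identifiers, whose rows were summed.

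Counts were rounded and fitted with edgeR 4.0.16 in R 4.3.3 (TMM, filterByExpr with minimum count 10 and minimum total 15, glmQLFit and glmQLFTest, two-sided, threshold 0.05). All 12 libraries entered 1 model with 7 group means, which leaves 5 residual degrees of freedom and a prior of 5.61. The 95% intervals use the t quantile for their sum, 10.6. CPM used TMM-scaled totals. Alternatives were size factors as in DESeq2, library totals, no filter, DESeq2 1.42.0, identifiers apart, only the groups compared, a replicate block and each library of a pair left out. The fit was tested on simulated data. Replicates differed by more than sampling noise (chi-square per degree of freedom 21.7 to 134), so none were merged.

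The members, gene lists and tests were chosen with earlier results of these data known. The rule for named genes took all members, the 2 called genes per direction with the largest fold changes from each list and comparison, and for each member the 2 most similar genes with a mean of at least 10 CPM. Of the list genes those picked between gates are described, except for an item that is not reported here, and over control a selection made after their values were seen, as were WNT3, TBXT and the list genes called by DESeq2 alone. The sample titles give the replicate numbers. The second set is a biological repeat, per the series' description, and both gates of a dose were sorted from the same colonies, which gives the pairing. As a check, libraries with the same number correlated in their distance from the group mean at -0.20 to 0.38 over 10 pairs of groups, 5 above 0.1. Between gates sorted from the same colonies the value was -0.098 at 100 ng/ml and 0.25 at 1000 ng/ml. The highest value, 0.38, was between SOX2-positive cells at 100 and 1000 ng/ml, which came from different colonies. P-values measure the spread between repeats of 1 line.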

Additional observations from a re-analysis of the deposited data

How the results depend on the processing

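Of 1359 results for single members under the alternatives, 1267 kept their direction and side of the threshold, 10 lost a call, 47 gained one and 35 changed sign, none of these called. Scaling by size factors as in DESeq2 changed none of 80. The cause of each change was not tested. Without the filter on low counts, the members called were 3 and 4 for SOX2-positive cells over control at 100 and 1000 ng/ml, 4 and 2 for 1000 over 100 ng/ml in SOX2-negative and SOX2-positive cells, and 2 for the difference of that effect between gates, each against 0. All symbols called were then 1608 and 1799 (against 719 and 954), 1551 and 107 (against 0 each) and 308 (against 0). DESeq2 called 1 member for SOX2-positive cells over control at 1000 ng/ml and 2 for the dose in SOX2-negative cells, and 1375 and 1614 symbols for SOX2-positive cells over control, 411 and 5 for the dose in SOX2-negative and SOX2-positive cells and 16 for the difference. With only the groups compared, the counts for SOX2-positive cells over control were 3 and 1 members and 2841 and 2188 symbols, with 1798 symbols (against 3514) for SOX2-negative cells over control at 100 ng/ml and 1 for the dose in SOX2-negative cells; LGR5 in SOX2-positive cells at 100 ng/ml could not be fitted there. With identifiers apart, 1 symbol was called for the dose in SOX2-positive cells and 1 for the difference. With the replicate block, 1 member (LEF1) was called in SOX2-positive cells over control at 100 ng/ml, against 0. LEF1 was called with it in SOX2-negative cells over control at 1000 ng/ml as well. In that fit 1 symbol was called for the dose in SOX2-negative cells, and AXIN2 for that dose had a log2 change of -0.0018. No other call of a member changed with the block. The block is 1 term for the repeat number over all groups, so the pairing of gates sorted from the same colonies was not modelled.

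Leaving out 1 library at a time gave 6 to 8 members between gates, 5 to 7 for SOX2-negative cells over control at each dose, 0 to 1 for SOX2-positive cells over control at each dose, 0 to 2 for the dose in SOX2-negative cells, 0 to 0 in SOX2-positive cells and 0 to 2 for the difference. All symbols called ranged from 2638 (without the second SOX2-positive library at 100 ng/ml) to 6835 (without the first SOX2-negative library at 100 ng/ml) between gates, against 4085. For SOX2-negative cells over control they ranged from 1410 to 6993 at 100 ng/ml and from 1397 to 4675 (against 3028) at 1000 ng/ml, and for SOX2-positive cells from 85 to 1508 and from 128 to 1803, each lowest without the second control library. The dose gave 0 to 5739 in SOX2-negative cells, 0 in SOX2-positive cells and 0 to 3795 for the difference, highest without the first SOX2-negative library at 100 ng/ml. Some values that were not called changed sign on leaving out 1 library. With all libraries these were 0.81 (SP5 in SOX2-positive cells at 100 ng/ml over control), 0.54 (TCF7) and 0.52 (LEF1) for the dose in SOX2-negative and SOX2-positive cells, -0.42 for the difference (LGR5), and -0.33 to 0.30 for the others. Over control these were SP5 (-0.013 to 2.18), NOTUM (-0.78 to 0.069) and ZNRF3 (-0.17 to 0.20) in SOX2-positive cells at 100 ng/ml, RNF43 at 1000 ng/ml (-0.57 to 0.014), and in SOX2-negative cells LEF1 at 100 ng/ml (-0.31 to 0.034) and RNF43 at 1000 ng/ml (-0.35 to 0.60). For the dose in SOX2-positive cells they were LEF1 (-0.12 to 1.72), ZNRF3 (-0.12 to 0.25), APCDD1 (-0.24 to 0.40) and AXIN2 (-0.36 to 0.028), and in SOX2-negative cells AXIN2 (-0.75 to 0.56), NOTUM (-0.84 to 0.19), ZNRF3 (-0.11 to 0.30), TCF7 (-0.0020 to 1.00), APCDD1 (-0.82 to 0.039) and RNF43 (-0.25 to 0.70). For the difference they were RNF43 (-0.60 to 0.35, and 0.011 with library totals), LGR5 (-0.86 to 0.22), AXIN2 (-0.59 to 0.72), TCF7 (-0.51 to 0.49) and ZNRF3 (-0.16 to 0.25). Of 70 calls of list genes the naming rule picks, 39 held under every alternative. The dose comparisons rest on 2 repeats a group of 1 line, and LGR5 outside SOX2-negative cells is near its counting floor.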
